A study of Rattus norvegicus with 10 samples.

Results

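The untreated state of chemically induced rat mammary tumors was described from 5 basal biopsies, which are 5 of the 10 arrays of the series. All arrays whose labels call the sample basal were taken. Female rats of the Sprague-Dawley strain had been given 7,12-dimethylbenz(a)anthracene (DMBA) once by mouth at 100 mg/kg, and the tumors that arose carry the codes 09I1, 11D2, 12I1, 29I1 and 43D1. Each was sampled by a needle biopsy of 0.7 cm by 2.5 mm at 12 weeks of age, when it measured 2 cm3, and had received no drug. The same tumors later received adriamycin at 1 mg/kg per week for 6 weeks and gave the 5 other arrays, which were not used. The labels do not say whether the 5 tumors grew in separate rats, and the series chose all of them at 1 histological grade (Bloom-Richardson II), so the spread described here is that between tumors of like grade. RNA was hybridised to the Affymetrix Rat Genome 230 2.0 array.

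DMBA is metabolised to a mutagen that gives rise to ductal carcinomas in the rat mammary gland, many of which depend on ovarian hormones and prolactin. The gland is built of a luminal epithelium, which makes milk under prolactin and STAT5, and a contractile myoepithelium around it, set in a stroma of fibroblasts, fat, vessels and immune cells. A piece of such a tumor mixes RNA of all of these. In bulk RNA, fewer cells of a type and less RNA per cell cannot be told apart, which holds for every cell type below.

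Levels are log2 values, and where 5 values follow each other they are in the order 09I1, 11D2, 12I1, 29I1, 43D1. Each gene is read from its brightest probe set. A probe set's brightness depends on its own affinity, so the order of brightness between genes is one of probe sets and not of transcripts. A gene counts as dim when its mean lay under the lower quartile of all probe sets, at 4.08. Above it lay 12219 of 14217 genes, which are called tested genes. The median level of an array was 6.01 to 6.12, and any pair of arrays correlated at 0.969 to 0.985 across probe sets. No statistical test was made, because the biopsies form 1 group.

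The brightest genes were those of the translation machinery and of mitochondrial DNA. The mitochondrially encoded cytochrome oxidase subunit COX1 read 14.05 ± 0.10 (SD, n = 5) and the translation elongation factor Eef1a1 14.001 ± 0.08. Cytosolic ribosomal protein genes made up 14 of the 20 brightest genes and 38 of the 100 brightest, led by Rps29 at 13.93 ± 0.07. The other members of the top 20 were COX2, the class I light chain B2m at 13.81 ± 0.14, the cytoplasmic actin Actg1 at 13.73 ± 0.11 and the lipid carrier Apoe at 13.70 ± 0.15. Further down the 100 brightest were the epithelial adhesion gene Epcam, the luminal keratin Krt19, the iron-binding protein Lcn2, the EGF family ligand Areg, the class II chaperone Cd74, the matrix gene Postn and the macrophage lysozyme Lyz2. Only 1 of the 100 brightest genes, the beta globin Hbb, had an SD over 1, against 3.6% of all tested genes.

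The dimmest genes read 2.74 to 2.79. They were Spock3, Rp1, Tinag, Sval1, Eif2s3y, Lrrc19, Neto1, Cdh12, Khdrbs2 and LOC102553528. Rp1 is a photoreceptor gene, Neto1 a gene of neuronal glutamate receptors and Eif2s3y a gene of the Y chromosome. Of 34 matched marker genes of liver, neuron, retina, pancreas and sperm, 20 were dim, against 1998 of all 14217 genes. The brightest of the remainder was the protease inhibitor Serpina1, at 7.04, 7.08, 9.24, 7.97 and 6.29. The probe set of another Y-linked gene, Uty, read 8.85 to 9.61 in these female rats, while Sry read 3.17 to 3.74. A bright probe set alone therefore does not show its named transcript.

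The biopsies carried markers of mammary epithelium, not all of them at even levels. Epcam read 12.97, 13.01, 13.03, 12.67 and 12.77. The adhesion molecule Cdh1 read 11.41 ± 0.13 and the luminal keratin Krt18 12.36 ± 0.26. The basal keratins were bright as well, with Krt5 at 12.31 ± 0.25 and Krt14 at 12.01 ± 0.55, and the basal transcription factor Tp63 read 10.11 ± 0.32. All 22 matched luminal genes were tested, with a median SD of 0.341 between tumors, against 0.227 over all tested genes. The luminal transcription factor Gata3 read 11.10 ± 0.34, whereas the probe set of Foxa1 lay just above the dim limit at 4.15 ± 0.40. Among the luminal genes Krt7 had the largest SD, at 9.96, 10.73, 10.83, 10.67 and 8.38, with 43D1 alone under 9. Prom1, a membrane protein of luminal cells, read 10.60, 9.32, 9.25, 9.40 and 11.32, with 09I1 and 43D1 above the others.

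Receptors of hormones and growth factors differed in how evenly they were read. The prolactin receptor Prlr read 12.34 ± 0.47, from 11.75 in 29I1 to 12.89 in 43D1. A second probe set of Prlr had the same highest and lowest tumors, while another was highest in 09I1, at 8.09, 6.996, 6.92, 6.38 and 6.70. The estrogen receptor Esr1 read 4.79, 4.74, 4.38, 4.38 and 5.72, and Esr2 was dim. The progesterone receptor Pgr, an estrogen target, read 9.45, 7.85, 7.38, 7.76 and 8.28. Greb1, another estrogen target, read 9.43, 6.31, 6.30, 6.50 and 5.65, so 09I1 stood 2.92 above the next tumor. Its second probe set did not vary so, at 5.09, 4.87, 4.96, 4.67 and 5.04. The secreted glycoprotein Stc2 read 8.12, 4.90, 6.18, 6.19 and 6.05. Pgr, Greb1 and Stc2 were thus all highest in 09I1, while Esr1 was highest in 43D1. Pgr, Greb1 and Stc2 had the largest SD among 16 tested hormone receptors and targets, which did not share 1 highest tumor. Of the 16, 6 were highest in 09I1, against 18.8% of all tested genes, and 6 in 43D1, against 26.2%. Lowest in 09I1 were 2 of them, Ccnd1 at 11.97 and Myb at 8.01, against 27.2%. Erbb2 read 8.60 ± 0.41, Egfr 8.37 ± 0.27 and the cell cycle regulator Ccnd1 12.32 ± 0.21.

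**Figure D1:**
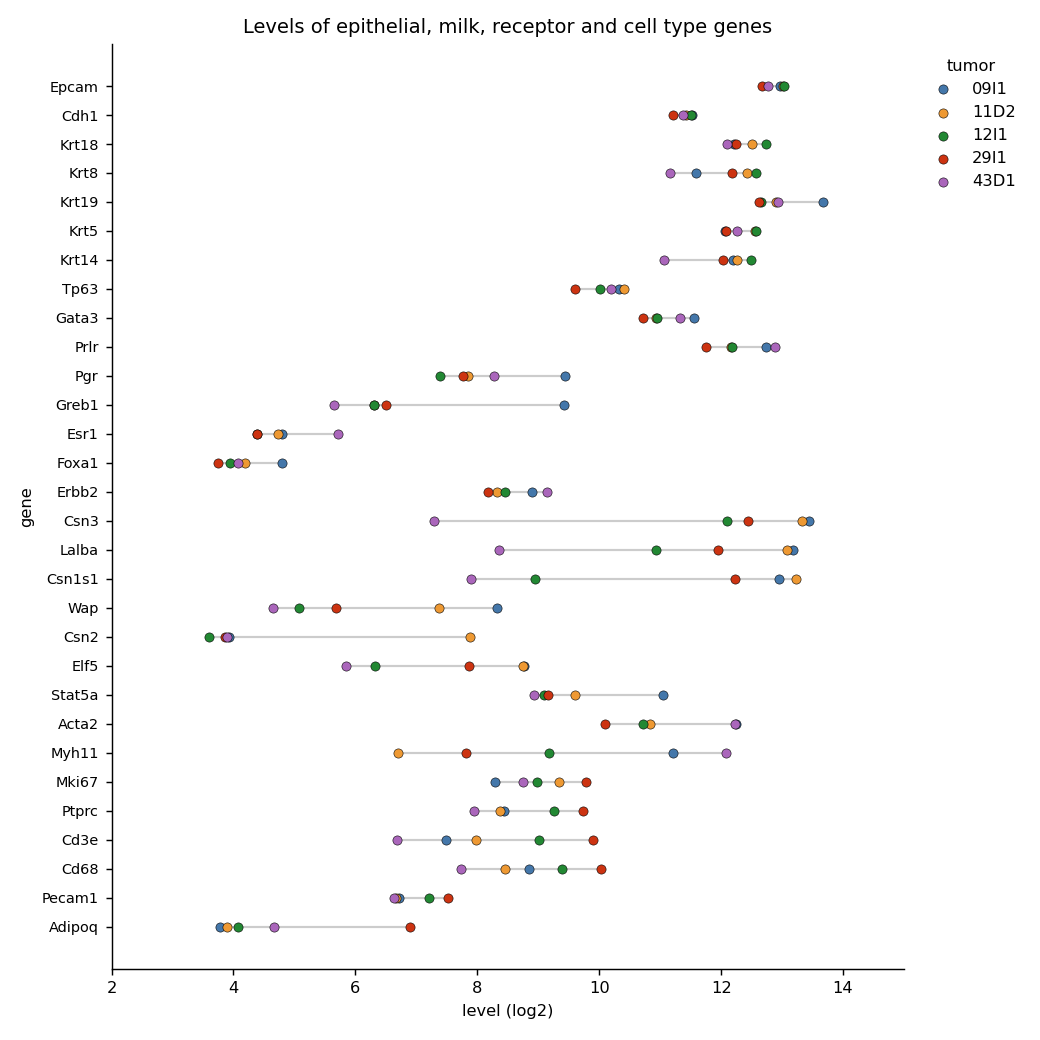
Level in log2 (horizontal axis) of 30 epithelial, receptor, milk and cell type genes, with 1 point per tumor and a grey line over the range. The points of Epcam lie between 12.67 and 13.03, while those of Csn3 run from 7.28 to 13.44.

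Between tumors, most genes varied little. The SD over the 5 tumors had a median of 0.227, a 95th percentile of 0.880 and a 99th percentile of 1.45 over tested genes. For scale, the 18 hybridisation spike-in probe sets, which carry no tumor RNA, had a median SD of 0.070, and the 24 poly-A spike-in probe sets, which carry none either, had one of 0.202, with a range of 0.090 to 0.522. An SD over 1 was found for 440 genes, which is 3.6% of those tested. Just inside that limit lay Krt23 at 1.0005 and just outside it Ccl28 at 0.9990. Among genes above the median level, the steadiest was the sorting nexin Snx18 at 9.79 ± 0.01, followed by the mitochondrial ribosome gene Mrpl44 at 8.29 ± 0.01 and the kinase Cdk9 at 9.88 ± 0.02. The next were Bicd2, Vps37c, Ankrd13c, Mrpl52, Repin1, Lypla2 and Zfp830, with SDs of 0.022 to 0.028. Each of these SDs is that of 1 probe set, picked as the smallest. Further probe sets varied more, with SDs of 0.114 for Vps37c, 0.139 for Ankrd13c, 0.196 for Snx18, 0.206 for Repin1 and 0.360 for Mrpl52.

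**Figure D2:**
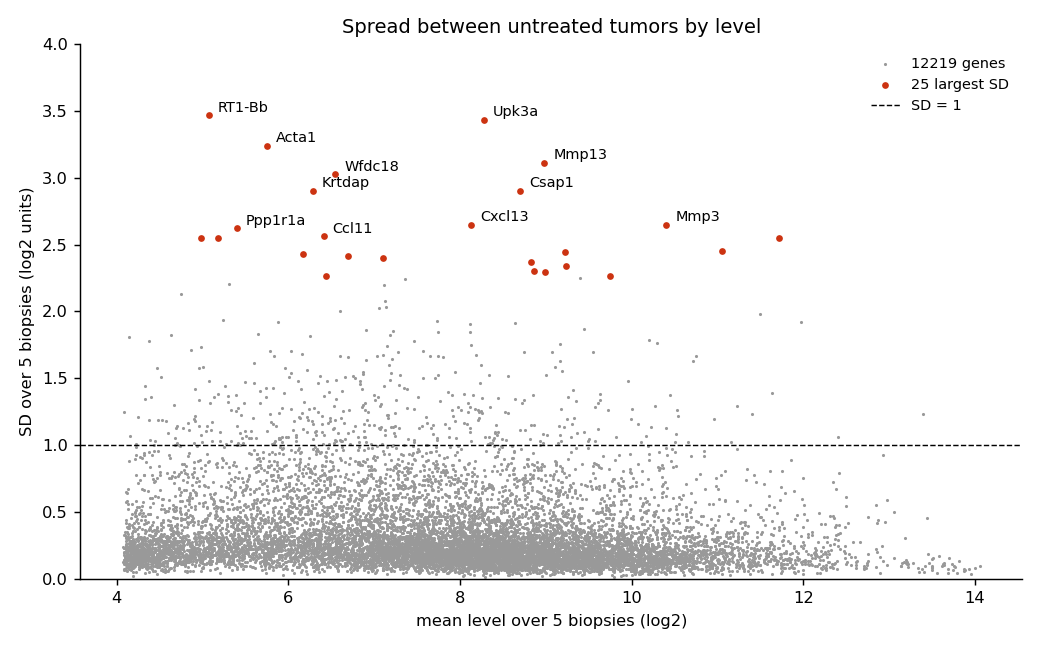
Mean level in log2 (horizontal axis) against the SD between the 5 biopsies in log2 units (vertical axis) for 12219 tested genes, 1 grey point each, with the 25 largest SDs in red. Most points lie under 0.372, the upper quartile, and 440 lie above the dashed line at 1.

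The 440 variable genes did not spread evenly over the tumors. 43D1 was the lowest tumor for 216 of them (49.1%), against 22.1% of all tested genes. 29I1 was the highest for 134 (30.5%), against 23.1% of all tested genes. 12I1 was the highest for 115 (26.1%), against 15.6%, and 09I1 for 71 (16.1%), against 18.8%. 43D1 was the highest for 78 (17.7%), against 26.2%, and 11D2 for 42 (9.55%), against 16.2%. As the lowest tumor, 09I1 took 75 (17.0%), against 27.2% of all tested genes. The shares were 11.8% for 12I1, against 22.1%, 11.4% for 11D2, against 10.9%, and 10.7% for 29I1, against 17.8%. Of the variable genes, 84 had a further tested probe set. In 76 of them (90.5%) both probe sets were highest in the same tumor, against 55.6% over all 3672 genes with a further probe set, and in 57 (67.9%) they were lowest in the same tumor, against 49.2%.

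The gene with the largest SD was RT1-Bb, a class II histocompatibility beta chain, at 11.27, 3.77, 3.51, 3.25 and 3.58. Only 09I1 was above the dim limit. The second probe set of RT1-Bb had another order, at 4.25, 4.89, 5.39, 6.26 and 4.50, with 29I1 highest. The partner chain RT1-Ba showed both patterns in separate probe sets. The brightest read 10.81, 11.84, 12.20, 12.80 and 11.10, and another 10.52, 7.29, 7.70, 8.37 and 6.81. The large value of RT1-Bb in 09I1 was therefore seen with 1 probe set and not with the other. Class II genes differ in sequence between haplotypes, and whether these probe sets read a difference in allele or in level was not tested.

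The 25 genes with the largest SD also held secreted enzymes and chemokines. The collagenase Mmp13 read 5.45, 10.37, 12.06, 11.19 and 5.83, and the stromelysin Mmp3 read 7.00, 12.53, 12.41, 11.99 and 8.09. Both were low in 09I1 and 43D1 and high in the other 3 tumors, a split read from genes chosen by their SD. The B cell chemokine Cxcl13 read 6.27, 6.60, 11.39, 10.62 and 5.79, with 12I1 and 29I1 apart from the others. Serpinb2, an inhibitor of plasminogen activators, read 4.16, 3.24, 9.04, 6.46 and 3.03, again highest in 12I1 and 29I1. The eotaxin Ccl11, which attracts eosinophils, read 4.06, 7.39, 3.80, 9.99 and 6.82.

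Other genes among the 25 with the largest SD are described in turn. Upk3a, a protein of the urothelial surface, read 11.07, 8.32, 12.22, 5.55 and 4.23. Wfdc18, a gene of the whey acidic protein domain family, read 4.73, 4.38, 11.45, 7.54 and 4.64. The salivary protein gene Csap1 read 11.36, 11.98, 6.93, 8.06 and 5.20. Its order of tumors is that of the casein Csn1s1, given below. The water channel Aqp5 read 11.91, 7.81, 6.43, 7.23 and 10.75, and the prostaglandin-degrading enzyme Hpgd read 12.29, 7.40, 7.61, 9.69 and 11.73. Both were highest in 09I1 and 43D1, and the second probe set of Hpgd gave 12.19, 7.17, 7.32, 9.34 and 11.57. Pcp4 and Fbxl22 were likewise highest in these tumors, with Pcp4 at 8.24, 4.83, 5.12, 6.71 and 10.63.

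**Figure D3:**
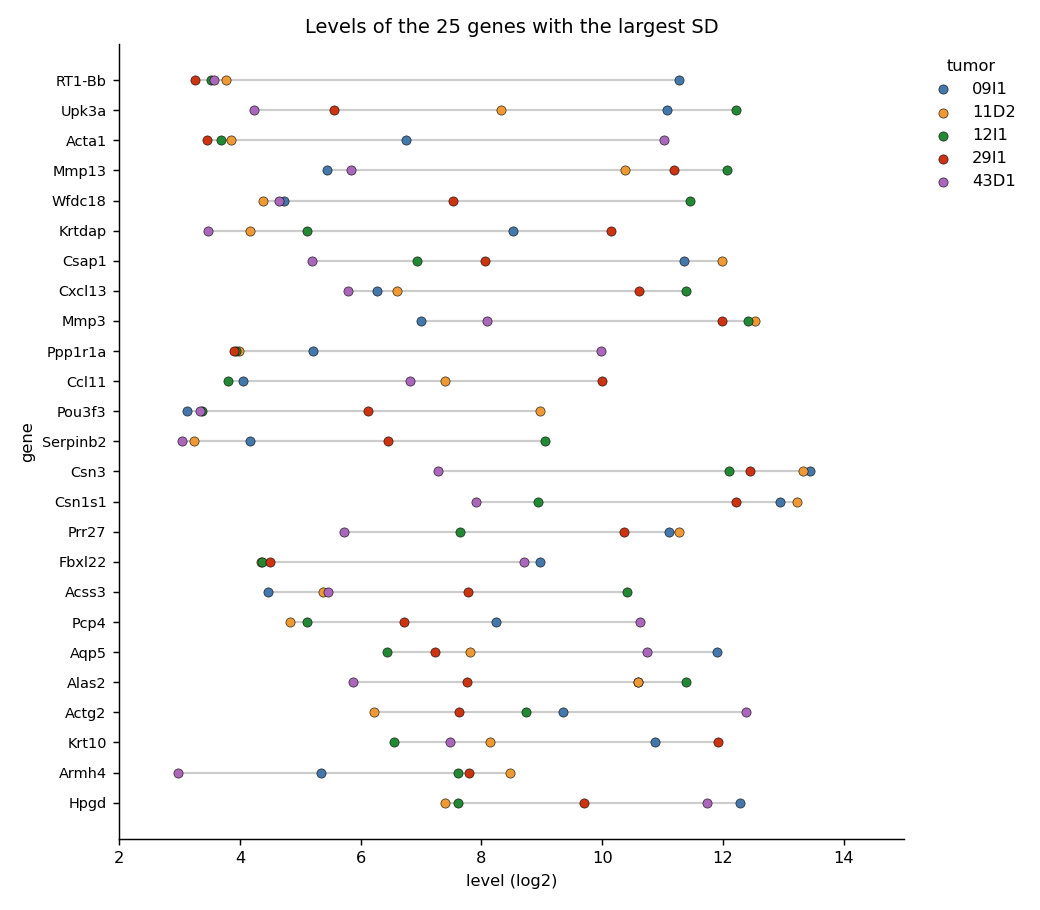
Level in log2 (horizontal axis) of the 25 genes with the largest SD, from RT1-Bb at the top to Hpgd, with 1 coloured point per tumor and a grey line over the range. The point of 09I1 lies apart for RT1-Bb, at 11.27 against 3.25 to 3.77.

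To see which genes varied together, members of gene lists were set beside each other. The lists were chosen with earlier results of these data known, so their shares describe these tumors and are no independent support. A list's score in a tumor is the median, over its tested members, of the difference between the level in that tumor and the gene's own mean over the 5 tumors, in log2 units. Over all tested genes this median lay between -0.03 in 09I1 and 0.02 in 29I1. No correlation between lists is given, since 5 tumors are too few for one, and some genes stand in more than 1 list, such as Cd74 (macrophage and antigen presentation) and Acly (adipocyte and fatty acid synthesis).

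**Figure D4:**
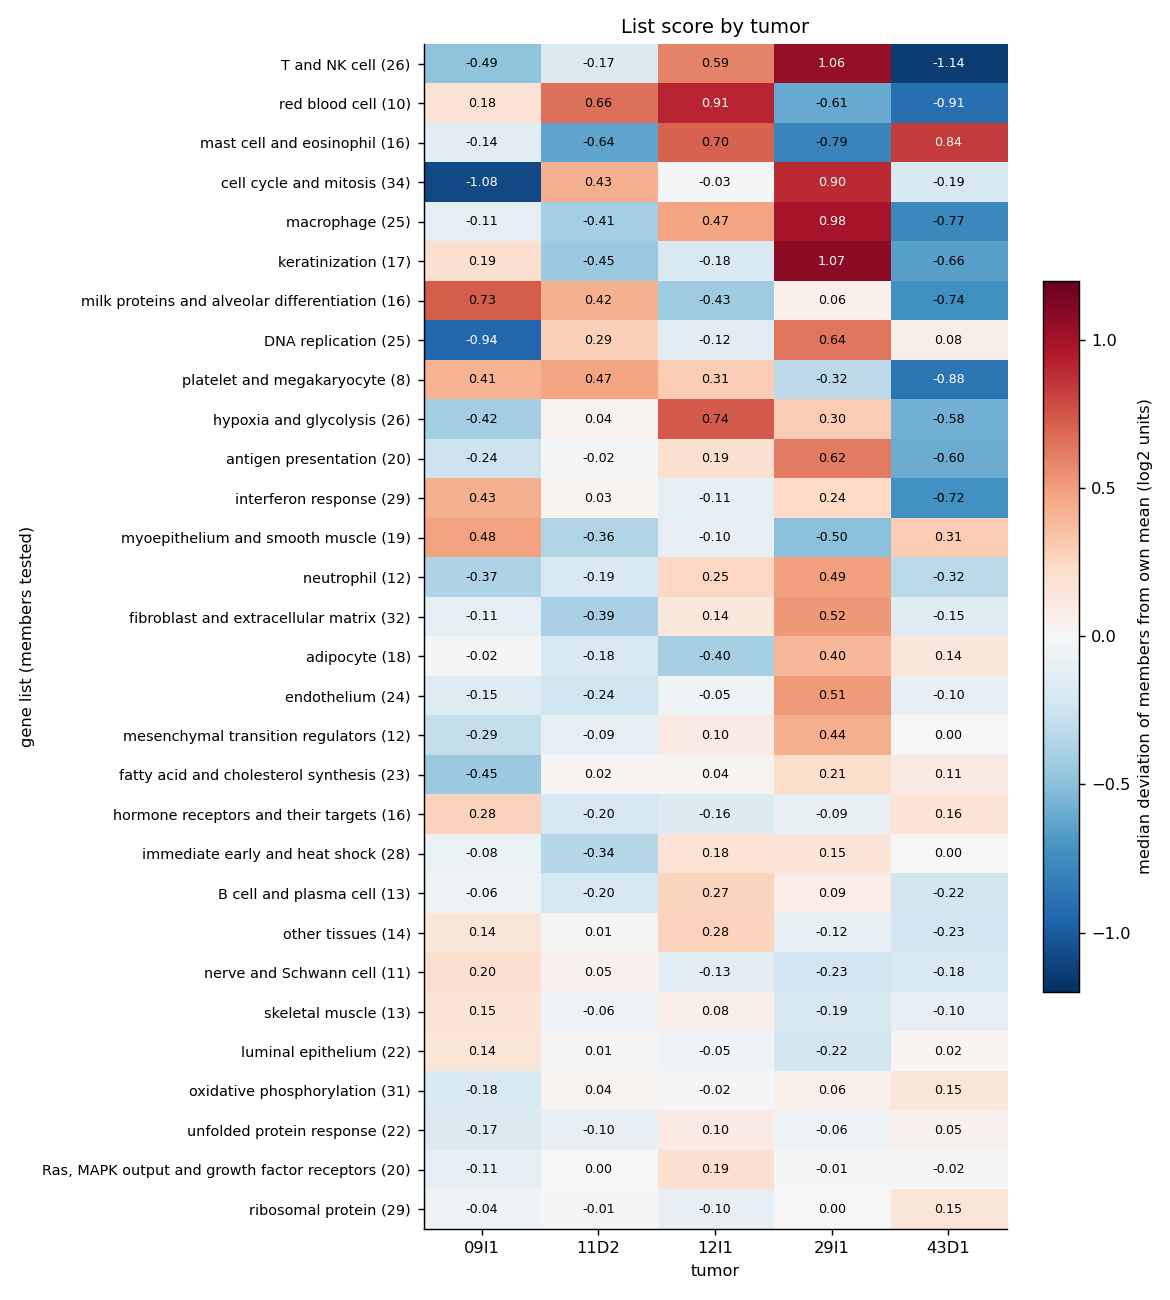
Score of 30 gene lists (rows, with the number of members tested) in each tumor (columns), as the median deviation of members from their own mean in log2 units. Rows are ordered by the SD of the score, from T and NK cell, at -1.14 to 1.06, to ribosomal protein, at -0.10 to 0.15.

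Proliferation genes varied almost as 1 group. The cell cycle and mitosis list scored -1.08, 0.43, -0.03, 0.90 and -0.19. Of its 34 tested members, 32 were highest in 29I1, against 23.1% of all tested genes, and 32 were lowest in 09I1, against 27.2%. The proliferation antigen Mki67 read 8.29, 9.33, 8.97, 9.79 and 8.75. The mitotic kinase Cdk1 read 8.06, 9.996, 9.36, 10.11 and 9.15, and its cyclin partner Ccnb1 7.17, 8.91, 8.37, 9.58 and 8.02. The checkpoint kinase Bub1b read 5.42, 7.60, 6.94, 7.99 and 6.93. For these 4 genes the order of the tumors was the same, from 29I1 through 11D2, 12I1 and 43D1 to 09I1. In Bub1b, 12I1 and 43D1 lay close, at 6.94 and 6.93. The median SD of the list was 0.772, and 2 of the 34 members, Pbk and Cdc25b, had an SD over 1, against 3.6% of all tested genes. The phosphatase Cdc25b, an activator of Cdk1, had another order, at 8.61, 8.85, 9.51, 7.99 and 6.71. The kinesin Kif2c was also apart, with its highest value in 43D1 at 9.18.

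DNA replication genes had the same highest and lowest tumors, with scores of -0.94, 0.29, -0.12, 0.64 and 0.08. Of 25 tested members, 24 were highest in 29I1, against 23.1% of all tested genes, and 24 lowest in 09I1, against 27.2%. The sliding clamp Pcna read 10.69, 11.75, 11.36, 11.96 and 11.59. The helicase subunit Mcm5 read 6.91, 8.10, 7.83, 8.60 and 7.91, and the licensing factor Cdt1 6.39, 8.22, 7.71, 8.58 and 7.64. No member had an SD over 1, against 3.6% of all tested genes. The exceptions to the order were Chek1, highest in 43D1 at 7.89, and Mcm7, lowest in 12I1 at 10.32. The 3' to 5' difference of the beta-actin control, a measure of RNA integrity, was 0.963 in 09I1, the lowest tumor for both lists, against 0.732 to 0.886 in the others. The same difference of the GAPDH control was 0.230 in 09I1 and was higher in 12I1, at 0.238, with 0.126 to 0.175 in the other tumors. The part of RNA integrity in the scores was not tested.

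The promoters of the proliferation genes are shown because these members varied together and because short elements are known in such promoters: the CCAAT box, bound by NF-Y, the CHR element TTTGAA of mitotic genes, and the E2F forms TTTGGCGC and TTTCCCGC of replication genes. The sequences come from RefSeq, build GRCr8, and each gives the 130 bases before the gene's start on its own strand. Capitals mark the 4 motifs on either strand, and overlapping matches were counted once per promoter. Cdc20 lies at chr5:137255800-137255929 on the minus strand, Cdk1 at chr20:19265163-19265292 on the plus strand, Top2a at chr10:84473094-84473223 on the minus strand and Mcm5 at chr19:13488683-13488812 on the plus strand.
Cdc20: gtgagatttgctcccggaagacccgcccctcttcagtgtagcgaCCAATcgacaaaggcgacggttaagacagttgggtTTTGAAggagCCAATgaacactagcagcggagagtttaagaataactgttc
Cdk1: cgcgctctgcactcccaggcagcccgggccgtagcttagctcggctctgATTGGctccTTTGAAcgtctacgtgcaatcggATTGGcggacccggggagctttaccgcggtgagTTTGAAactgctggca
Top2a: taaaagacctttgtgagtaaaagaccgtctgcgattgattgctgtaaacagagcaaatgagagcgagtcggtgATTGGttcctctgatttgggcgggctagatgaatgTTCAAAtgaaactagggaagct
Mcm5: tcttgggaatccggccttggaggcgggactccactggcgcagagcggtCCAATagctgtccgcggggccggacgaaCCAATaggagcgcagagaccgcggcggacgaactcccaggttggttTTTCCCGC

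A promoter of 300 bases was listed for 28 of the 34 cell cycle genes and 22 of the 25 replication genes. CCAAT stood in 22 of the 28 (78.6%) and TTTGAA in 19 (67.9%), against 37.7% and 18.1% of all 27457 promoters and 37.6% and 11.5% of the promoters of tested genes. Both stood in 17 of the 28 (60.7%), against 7.25% of all. In the replication list CCAAT stood in 12 of 22 (54.5%) and TTTGAA in 2 (9.09%), a share near that of tested genes. TTTGGCGC stood in 7 of the 22 replication promoters (31.8%) against 0.521% of all and 0.862% of those of tested genes, and TTTCCCGC in 5 (22.7%) against 1.03% and 2.00%, while neither stood in any of the 28 cell cycle promoters. Cdc20, Cdk1, Top2a and Mcm5 were all highest in 29I1 and lowest in 09I1. Members outside that order held motifs too: CCAAT in Cdc25b and Mcm7, and TTTCCCGC in Mcm7 and Chek1. A link between motifs and the order of tumors was not tested. A match is a description of letters and not of binding.

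T cell and natural killer cell genes had the widest range of scores of any list, at -0.49, -0.17, 0.59, 1.06 and -1.14. Of 26 tested members, 20 were highest in 29I1 and 22 lowest in 43D1, against 23.1% and 22.1% of all tested genes. An SD over 1 was found for 13 of the 26, against 3.6% of all tested genes. The T cell receptor subunits Cd3e, at 7.48, 7.98, 9.00, 9.90 and 6.69, and Cd3d, at 6.32, 7.20, 8.38, 9.22 and 5.78, kept 1 order of tumors. The inhibitory coreceptor Cd5 read 5.37, 6.44, 7.32, 8.32 and 4.91. The 6 members with another highest tumor were Cd8b, Gzmb, Gzmk, Nkg7 and Ctsw, highest in 12I1, and Cd28, highest in 09I1. Granzyme B (Gzmb) read 4.57, 5.13, 6.46, 5.34 and 3.33 and the granule protein Nkg7 5.67, 5.80, 7.65, 6.98 and 4.58. The cytotoxic genes Prf1, Gzma and Klrd1 were highest in 29I1, with the list. The leukocyte antigen Ptprc read 8.43, 8.37, 9.27, 9.73 and 7.94.

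Macrophage genes shared the highest and lowest tumors of the T cell genes. Their score was -0.11, -0.41, 0.47, 0.99 and -0.77, with 19 of 25 members highest in 29I1, against 23.1% of all tested genes, and 20 lowest in 43D1, against 22.1%. The lysosomal marker Cd68 read 8.85, 8.46, 9.40, 10.03 and 7.73 and the complement subunit C1qa 10.79, 10.41, 11.53, 11.95 and 9.52. Heme oxygenase Hmox1 read 7.47, 7.65, 9.54, 9.02 and 6.39, highest in 12I1. Antigen presentation genes scored -0.24, -0.02, 0.19, 0.62 and -0.60, the same order of tumors as the T cell list. Of 20 members, 16 were highest in 29I1, against 23.1% of all tested genes, and 14 lowest in 43D1, against 22.1%. Their class II regulator Ciita read 6.61, 7.17, 7.57, 9.04 and 6.08. The 2 exceptions with their highest value in 09I1 were RT1-Bb and the class I gene RT1-S3.

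Smaller leukocyte lists followed less closely. Neutrophil genes scored -0.37, -0.19, 0.25, 0.49 and -0.33, with the cytokine Il1b at 6.11, 7.14, 7.39, 8.09 and 6.61. The granule peptide gene Np4 was instead highest in 43D1, at 6.28 against 3.34 to 3.96 in the other tumors, all under the dim limit. B cell and plasma cell genes scored -0.06, -0.20, 0.27, 0.09 and -0.23. Ms4a1, the gene of CD20, was dim, and the immunoglobulin joining chain Jchain read 5.64, 6.21, 7.07, 7.02 and 6.16.

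Mast cell genes had an order of their own. The list of mast cells and eosinophils scored -0.14, -0.64, 0.70, -0.79 and 0.84, with 8 of 16 members highest in 43D1, against 26.2% of all tested genes, and 7 lowest in 29I1, against 17.8%. Carboxypeptidase Cpa3 read 10.55, 9.44, 11.38, 9.51 and 11.64, and the tryptase Tpsb2 7.83, 7.80, 8.95, 7.09 and 10.56. The IgE receptor subunit Ms4a2 read 6.34, 4.95, 7.33, 5.18 and 8.48. These 3 genes were highest in 43D1 and next in 12I1. The protease Mcpt1 was highest in 12I1 at 12.67. Other members of the list went elsewhere or were dim. Epx and Prg2, which encode eosinophil granule proteins, were dim. Alox15 read 7.405, 8.01, 8.335, 5.99 and 4.62, highest in 12I1 and lowest in 43D1. The chemokines Ccl11 and Ccl24, which are not granule genes, were highest in 29I1, with Ccl24 at 8.38 against 5.90 to 7.53.

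Interferon-stimulated genes were lowest in 43D1 in 26 of 29 members, against 22.1% of all tested genes, and scored 0.43, 0.03, -0.11, 0.24 and -0.72. They were highest in 09I1 (16 members, against 18.8%) or 29I1 (12 members, against 23.1%), with 1 exception. The antiviral genes Oas1a, at 9.47, 9.00, 8.16, 8.78 and 8.02, and Irf7, at 10.32, 9.54, 8.95, 9.41 and 8.40, were highest in 09I1. The T cell chemokines Cxcl9, at 7.65, 9.64, 9.52, 10.94 and 7.26, Cxcl10, at 6.55, 6.97, 7.62, 9.30 and 4.71, and Cxcl11, at 5.87, 6.80, 7.33, 9.42 and 5.12, were highest in 29I1. The antiviral gene Rsad2 was highest in 12I1, at 9.91, and lowest in 43D1, at 6.20.

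Promoters of 3 interferon genes are shown because 26 members shared their lowest tumor and because the interferon-stimulated response element is the known binding site of the activated STAT and IRF complex. The core of that element, on either strand, is in capitals in the 130 bases before the start. Irf7 lies at chr1:205800024-205800153 on the minus strand, Ifit3 at chr1:241527196-241527325 on the plus strand and Oas1a at chr12:41330336-41330465 on the plus strand, in GRCr8.
Irf7: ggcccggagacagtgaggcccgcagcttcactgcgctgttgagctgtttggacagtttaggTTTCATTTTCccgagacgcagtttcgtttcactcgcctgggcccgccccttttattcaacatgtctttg
Ifit3: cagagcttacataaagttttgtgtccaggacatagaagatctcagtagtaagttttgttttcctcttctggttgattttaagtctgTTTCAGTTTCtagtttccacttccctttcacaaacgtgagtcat
Oas1a: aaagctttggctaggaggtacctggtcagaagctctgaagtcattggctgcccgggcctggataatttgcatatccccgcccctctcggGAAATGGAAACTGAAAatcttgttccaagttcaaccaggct
The core stood in 14 of 22 listed promoters of the interferon genes (63.6%), against 3.77% of all 27457 and 2.97% of those of tested genes. In Oas1a it stood at 2 overlapping positions.

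**Figure D5:**
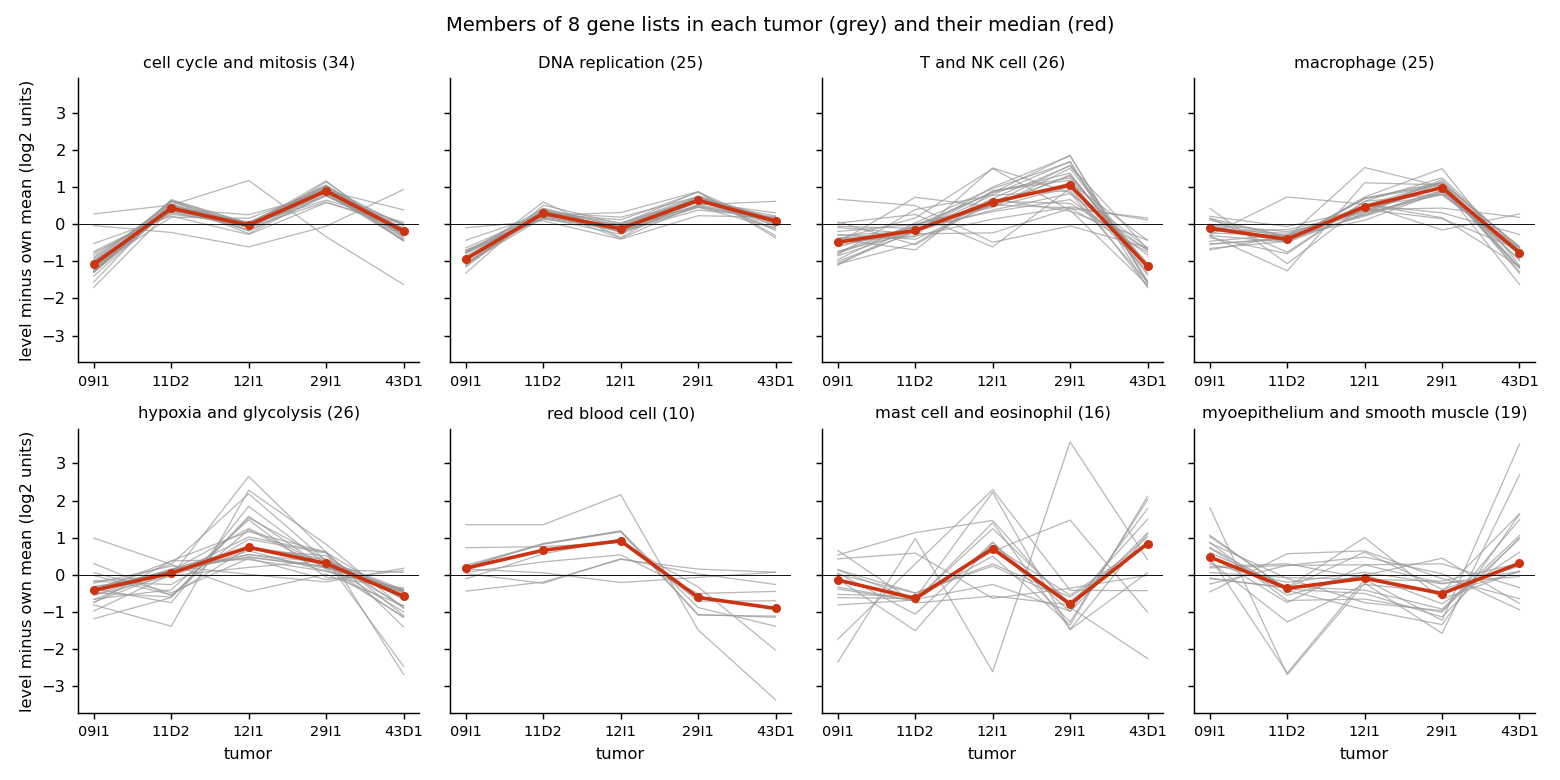
Level minus the gene's own mean in log2 units (vertical axis) in each tumor (horizontal axis) for the tested members of 8 lists, 1 grey line per gene, with the median in red. The lines of the 34 cell cycle genes run close together, from a median of -1.08 in 09I1 to 0.90 in 29I1, while those of the mast cell and smooth muscle lists cross.

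Milk protein genes were among the most variable. Their list scored 0.73, 0.43, -0.43, 0.06 and -0.74, with 7 of 16 members over an SD of 1, against 3.6% of all tested genes, and 12 lowest in 43D1, against 22.1%. The casein Csn3 read 13.44, 13.33, 12.10, 12.45 and 7.28, so 43D1 stood 4.82 below the next tumor. Lactalbumin (Lalba) read 13.19, 13.08, 10.93, 11.95 and 8.36, and the casein Csn1s1 12.95, 13.22, 8.94, 12.22 and 7.90. The whey protein Wap read 8.32, 7.38, 5.08, 5.68 and 4.65. Elf5, a transcription factor of alveolar cells, read 8.77, 8.75, 6.32, 7.86 and 5.85, so these genes were high in 09I1 and 11D2, lower in 29I1 and 12I1 and lowest in 43D1. The casein Csn2 was different, at 3.92, 7.88, 3.60, 3.87 and 3.89, and was above the dim limit in 11D2 alone. Glycam1, a mucin-like milk fat globule protein, was highest in 43D1, at 6.82, 5.44, 5.47, 7.14 and 10.40. The STAT motif TTCNNNGAA stood in 3 of 14 listed milk gene promoters (21.4%), those of Csn1s1, Csn2 and Glycam1, against 8.68% of all and 6.53% of those of tested genes.

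The list of contractile genes had its highest scores in 09I1 and 43D1. The myoepithelium and smooth muscle list scored 0.48, -0.36, -0.10, -0.51 and 0.31, and 11 of its 19 members were lowest in 29I1, against 17.8% of all tested genes. Of the 19, 8 were highest in 43D1, against 26.2%, 5 in 09I1, against 18.8%, and 5 in 12I1, against 15.6%. Smooth muscle actin Acta2 read 12.25, 10.84, 10.72, 10.09 and 12.23, and calponin Cnn1 11.34, 9.86, 9.34, 8.93 and 11.91, with 09I1 and 43D1 apart from the other 3. The myosin Myh11 read 11.20, 6.71, 9.17, 7.82 and 12.09 and the second smooth muscle actin Actg2 9.34, 6.21, 8.74, 7.63 and 12.38. The keratins of the same list did not share this order. Krt14 was lowest in 43D1 at 11.06, and Krt5 ranged from 12.06 to 12.57. Oxtr was lowest in 43D1 as well, at 3.71, and Des read 6.80 there against 7.41 in 12I1 and 7.44 in 29I1.

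Of 26 skeletal muscle markers, 13 were dim, against 1998 of all 14217 genes. Among them were creatine kinase Ckm, myoglobin Mb and troponin Tnnt3. The skeletal actin Acta1 was the exception with a large spread, at 6.76, 3.85, 3.68, 3.45 and 11.02. Its highest tumors, 43D1 and 09I1, were those of Acta2, Cnn1, Myh11 and Actg2. The brightest member was the myosin Myh1, at 10.33 to 11.26, while Myh2 and Myh4 were dim. Myh1 had 5 probe sets, the second of which read 10.30 to 11.04. Which transcript these probe sets read was not tested. The list scored 0.15, -0.06, 0.08, -0.19 and -0.10.

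Keratinization genes were high in 29I1 and 09I1. Their score was 0.19, -0.45, -0.18, 1.07 and -0.66, with 11 of 17 members highest in 29I1, against 23.1% of all tested genes, and 10 lowest in 43D1, against 22.1%. Among the 11, Scel and Dsg1 read under the dim limit in 11D2, 12I1 and 43D1. Their means passed it only through the tumors where they were high, so their place in this count is no support. The suprabasal keratin Krt10 read 10.87, 8.15, 6.56, 11.92 and 7.48, the cornified envelope gene Loricrin 9.32, 6.19, 5.59, 10.21 and 5.46, and Krtdap 8.52, 4.16, 5.11, 10.14 and 3.47. In these 3 genes, which had the largest SD of the list, 09I1 and 29I1 lay above the other tumors. This split was read from the same values. Sfn, Calml3, Dsc1, Sprr1b and Lgals7 did not have it, with Sfn at 9.31 in 09I1 against 11.26 in 12I1. The remaining tested members had it, Sprr1a only narrowly, at 6.009 in 09I1 against 6.003 in 12I1. Involucrin (Ivl) was dim, and the galectin Lgals7 varied little, at 11.69 to 12.09.

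Fibroblast and endothelial lists had their highest score in 29I1. The fibroblast and matrix list scored -0.11, -0.39, 0.14, 0.52 and -0.15, with 20 of 32 members highest in 29I1, against 23.1% of all tested genes, and 19 lowest in 11D2, against 10.9%. The matrix protein Dpt read 4.96, 6.12, 5.79, 9.47 and 8.18, and the collagen Col1a1, highest in 09I1, read 11.73, 10.89, 11.52, 11.68 and 10.98. The proteoglycan Fmod was instead lowest in 29I1, at 10.50, 10.13, 8.79, 7.73 and 10.87. Endothelial genes scored -0.15, -0.24, -0.05, 0.51 and -0.10, with 16 of 24 members highest in 29I1, against 23.1%. The adhesion molecule Pecam1 read 6.72, 6.67, 7.20, 7.52 and 6.63, and the receptor Kdr 7.33, 7.62, 7.52, 8.63 and 7.63. The VEGF receptor Flt1 had another order, at 8.86, 8.15, 9.09, 8.16 and 6.14.

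Fat cell genes were uneven. The adipocyte list scored -0.02, -0.18, -0.40, 0.40 and 0.14. The score in 29I1 was 0.028 without 12I1 and 0.75 with the mean over members in place of the median. Of the list, 5 of the 23 matched members, including leptin (Lep), were dim, against 1998 of all 14217 genes. Adiponectin (Adipoq) read 3.78, 3.90, 4.07, 6.90 and 4.67 and the fatty acid carrier Fabp4 5.99, 5.03, 4.70, 8.47 and 6.35. Carbonic anhydrase Car3 read 5.06, 5.53, 6.55, 10.02 and 8.44. These 3 were highest in 29I1 and next in 43D1. Of the 18 tested members, 8 were highest in 29I1, against 23.1% of all tested genes, and 5 in 09I1, against 18.8%. Scd and Thrsp were highest in 09I1, and Acly in 43D1. Nerve and Schwann cell genes scored 0.20, 0.05, -0.13, -0.23 and -0.18. Of 11 tested members, 3 were highest in 09I1, against 18.8% of all tested genes, and 4 in 11D2, against 16.2%. The glial gene S100b read 8.50, 7.12, 6.28, 6.38 and 6.64. Gfap, which had the largest SD of the list, went another way, at 4.27, 4.415, 7.27, 5.89 and 4.035.

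Blood genes were highest in 12I1, 11D2 and 09I1. Red blood cell genes scored 0.17, 0.66, 0.91, -0.61 and -0.91. Of 10 tested members, 9 were highest in 12I1, against 15.6% of all tested genes, and 6 lowest in 43D1, against 22.1%. The globin Hbb read 14.12, 14.15, 14.26, 13.06 and 11.36, and the erythroid heme synthesis enzyme Alas2 10.59, 10.59, 11.40, 7.75 and 5.87. Platelet genes scored 0.41, 0.47, 0.31, -0.32 and -0.88, with the platelet tubulin Tubb1 at 7.27, 7.06, 7.13, 4.81 and 4.67. Both lists put 29I1 and 43D1 under the other 3 tumors. In the T cell and macrophage lists, by contrast, 29I1 was the highest tumor.

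Hypoxia and glycolysis genes were highest in 12I1. Their score was -0.42, 0.04, 0.74, 0.30 and -0.58. Of 26 members, 23 were highest in 12I1, against 15.6% of all tested genes, and 16 lowest in 43D1, against 22.1%. The acid-handling enzyme Car9 read 6.71, 7.39, 9.28, 7.48 and 4.64, the oxygen sensor Egln3 7.18, 7.71, 10.38, 8.35 and 5.05, and adrenomedullin (Adm) 5.55, 4.98, 8.64, 7.19 and 5.47. The angiogenic factor Vegfa read 9.57, 8.71, 10.48, 9.43 and 8.13, and the glucose transporter Slc2a1 9.70, 9.96, 11.84, 10.29 and 10.01. The glycolytic enzymes had smaller spreads in the same direction, as with Ldha at 12.10, 12.60, 12.97, 12.67 and 12.08. The GAPDH control probe sets of the array, which read a glycolytic gene used as a housekeeping control, averaged 12.36, 13.02, 13.26, 13.09 and 12.47.

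Housekeeping programmes varied least. Ribosomal protein genes had a median SD of 0.103, yet 28 of 29 were highest in 43D1, against 26.2% of all tested genes, with scores of -0.04, -0.01, -0.10, 0.00 and 0.15. Rpl14 read 12.78, 12.85, 12.67, 12.79 and 13.20. Oxidative phosphorylation genes had a median SD of 0.147 and scored -0.18, 0.04, -0.02, 0.06 and 0.15, with 19 of 31 highest in 43D1, against 26.2%, and 22 lowest in 09I1, against 27.2%.

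Each tumor also had genes that set it apart, chosen by the gap to the nearest other tumor. Because genes were tested on their mean, some passed the dim limit of 4.08 only through the tumor where they were high. Sctr, Csn2, Krt12 and RT1-Bb read under it in every other tumor, and Cst12, Pou3f3, Scel and RatNP-3b in some of them. Gaps of such genes start near the lowest signals. Acta1, Ppp1r1a, Ccl11, Col9a1, Vch, Spin2b and Serpina3n also read under the limit in at least 1 other tumor. The lower ends of their ranges thus lie near the lowest signals too. In 09I1 the genes above included RT1-Bb and Greb1, whose second probe sets did not have such a gap. Also above were the secretin receptor Sctr, at 7.56 against 3.46 to 3.68, and the pyruvate dehydrogenase kinase Pdk4, at 10.68 against 4.98 to 7.49. The neuronal filament Prph and the amino acid transporter Slc7a7 followed. The chemokine Cxcl14 was lowest there, at 6.80 against 9.76 to 10.18, as was the enkephalin precursor Penk, at 7.88 against 10.73 to 11.92. In 11D2 the gaps above were led by Cst12, at 8.48 against 3.25 to 4.37, Csn2, the transcription factor Pou3f3, at 8.97 against 3.12 to 6.12, and the cartilage collagen Col9a1. The scavenger receptor Colec12 was lowest in 11D2, at 7.13 against 9.16 to 9.74.

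In 12I1 the growth hormone-releasing hormone gene Ghrh read 8.69 against 4.33 to 4.43, and Wfdc18, Vch, the corneal keratin Krt12, the incretin Gip and Acss3 followed. The BMP and Wnt antagonist Sostdc1 was lowest in 12I1, at 4.52 against 8.21 to 9.24, as were the elastic fibre gene Mfap4 and the lipogenic gene Thrsp, at 4.70 against 7.79 to 8.06. In 29I1 the phospholipase Pla2g2d read 8.99 against 4.99 to 6.03, the envelope precursor Sprr1a 8.92 against 4.11 to 6.01, and the complement factor Cfd 10.79 against 7.25 to 8.04. Ccl11, Serpina3n and Scel were the others. The homeobox gene Hoxb2 was lowest there, at 7.66 against 8.97 to 10.51.

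In 43D1 the phosphatase inhibitor Ppp1r1a read 9.99 against 3.90 to 5.21, and its second probe set 8.15 against 3.83 to 4.01. Acta1, Glycam1, Actg2, the glycine decarboxylase Gldc, at 8.75 against 4.67 to 5.65, and the defensin RatNP-3b, at 7.21 against 3.0005 to 4.37, followed. Below the others were Csn3, the keratin Krt6c, at 5.46 against 8.44 to 10.35, the deiminase Padi3, at 5.06 against 7.87 to 9.41, and tissue factor F3, at 7.52 against 10.28 to 12.42. Over the lists, 43D1 had the highest score for mast cell genes and the lowest for T cell, macrophage, interferon, milk and red blood cell genes.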

How the data were processed

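The authors deposited log2 values. Intensities were normalized by robust multichip averaging (RMA), per the submitters' processing notes, over arrays that are not named in the sources used here, and the authors used GeneSpring GX 7.3, per the labels' protocols. The design text speaks of removing controls and signals near background, but the table still held 57 control probe sets and low signals, so here that step was done separately. Of 31099 probe sets, 20826 had 1 gene symbol in the platform annotation, 436 several and 9780 none, and 20758 matched the RefSeq table of GRCr8 by Entrez identifier, all with the same symbol. Hras, Actb and Gapdh had no probe set of their own symbol alone. Controls were left out, a gene was its brightest probe set, and genes with a mean in the lowest 25% of probe sets were left out of the spread.

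Of 798 entries in 31 gene lists, 678 had a measured gene and 612 of these were tested. The lists and members were chosen with earlier results of these data known. Named genes are the 20 brightest, the 10 dimmest, the 25 with the largest and the 10 with the smallest SD, for each tumor 6 with the largest gap above and 4 below, and in each list the brightest and the 3 with the largest SD, with fixed marker genes. Further list members were named after their values were seen, as were the promoters printed. RefSeq promoters, 250 bases before to 50 after a start, were matched by Entrez identifier. Scripts were tested on simulated data. Alternatives were cyclic loess (limma 3.58.1 in R 4.3.3), centring of arrays, other filters, the mean over probe sets, a range limit of 2.5, the mean over members and leaving out each tumor. Precision is limited by the small number of arrays. Plots were made in matplotlib 3.10.9.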

Additional observations from a re-analysis of the deposited data

Results flagged for a closer look

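In each of 74 sets of 5 values (30 list scores, 33 gene levels and 11 array measures), the highest or lowest tumor was compared with its nearest neighbour, and 4 sets had a tumor far from the others. Chance alone gives about 1 in 20, which is 3.7 of 74. The casein Csn2 read 7.885 in 11D2 against 3.603 to 3.925 in the other tumors. The casein Csn3 read 7.282 in 43D1 against 12.103 to 13.436. Adiponectin (Adipoq) read 6.904 in 29I1 against 3.783 to 4.665. The endothelium list scored 0.509 in 29I1 against -0.236 to -0.05. None of the array measures, such as the beta-actin 3' to 5' difference, had a tumor far from the others by this measure.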

How the results depend on the processing

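The number of genes with an SD over 1 was 440 and lay between 317 (the lower 50% of probe sets left out) and 531 (without 11D2) under 12 alternatives, all within 1.5 times. Of the 408 genes with a range over 2.5, 381 were among the 440. The highest and the lowest score of each of 30 lists gave 658 values under the alternatives. None changed sign, and 653 moved by less than the SD of the list's 5 scores. Of the other values, the adipocyte score in 29I1 was 0.75 with the mean over members, and 0.028 to 0.395 when a tumor was left out, with the lowest value without 12I1. The skeletal muscle score in 29I1 was -0.34 with the mean over members, the neutrophil score in 09I1 was -1.003 with the lower 50% left out (4 members), and the Ras and MAPK score in 12I1 was 0.076 to 0.234 when a tumor was left out, lowest without 09I1. The cause was not tested. Under cyclic loess the highest tumor was the same in 30 of 30 lists and the lowest in 27, and with the mean over members in 25 and 28. The mean levels of 33 fixed genes moved by less than their SD in all 231 values computed under the alternatives. No paired analysis was possible because the description uses the basal group alone. Dim genes lie near the lowest signals of the arrays, which limits what their levels and order can show.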

Other observations

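Lists of signalling and stress genes had median SDs between tumors of 0.426 (immediate early and heat shock), 0.344 (Ras and MAPK output) and 0.247 (unfolded protein response), against 0.227 over all tested genes. Immediate early and heat shock genes scored -0.08, -0.35, 0.18, 0.15 and -0.01 in the order 09I1, 11D2, 12I1, 29I1, 43D1, and 13 of 28 members were lowest in 11D2, against 10.9% of all tested genes. The stress factor Atf3 had the largest SD, at 8.82, 5.78, 7.37, 7.02 and 6.65. Unfolded protein response genes scored -0.17 to 0.10, with Herpud1 highest in 43D1 at 10.47 against 9.25 to 9.46. Ras and MAPK output genes scored -0.11 to 0.19. Cyclin Ccnd2 read 8.95 in 09I1 against 10.49 to 11.40 in the other tumors, and the feedback phosphatase Dusp6 read 11.46 to 12.84.

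Fatty acid and cholesterol synthesis genes were lowest in 09I1 in 16 of 23 members, against 27.2% of all tested genes, with scores of -0.45, 0.02, 0.04, 0.21 and 0.11. The sterol pathway enzyme Idi1 read 7.92, 9.68, 9.55, 10.10 and 9.85, and Sqle 7.50, 8.97, 9.34, 9.16 and 8.46. The desaturase Scd had the opposite extreme, at 9.98 in 09I1 against 7.06 to 8.30, and fatty acid synthase Fasn was likewise highest there, at 11.36 against 10.60 to 10.86. Regulators of mesenchymal transition scored -0.29, -0.09, 0.10, 0.44 and 0.00, with 7 of 12 highest in 29I1, against 23.1%. Vimentin (Vim) read 11.95, 11.86, 12.50, 12.79 and 11.96, while the cadherin Cdh2 was highest in 12I1, at 7.50 against 4.28 to 5.87, though its brightest other probe set read 5.16 to 5.57 in all tumors.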
